A study of Mus musculus with 4 samples.

Results

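The mitochondrial carriers of solute carrier family 25 (SLC25) were followed through Topors knockdown in AML12 cells, as transcript levels in 4 RNA libraries. Levels are in TPM, read abundance scaled by gene length and library. Members were all genes of the deposited table whose symbol is Slc25a followed by a number, which took 47 of 52630 gene identifiers. Of these, 39 averaged 1 TPM or more across all libraries and are called expressed here, as were 13509 genes of the table. The rule for members used no measured value, apart from this limit on the mean over all libraries. It was set with earlier results of these data known.

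The shTopors group was AML12 cells infected with lentivirus carrying short hairpin RNA against Topors, which encodes a ligase for ubiquitin and SUMO. The shCtrl group was the same line infected with control hairpin virus. The number of hairpins used, and whether libraries of a group share one, is not stated. Each group had 2 libraries. All 4 came from one established mouse hepatocyte line that carries a human TGF-alpha transgene, grown in medium with dexamethasone and insulin supplement. Cells received 200 µl of virus concentrate, had fresh medium at 24 hours and were harvested on day 5, and ribosomal RNA was depleted before strand-specific library preparation. Whether the libraries of a group are separate cultures is not stated, so a p-value here reflects library-to-library spread, possibly technical spread alone.

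SLC25 proteins fold as a bundle of transmembrane helices built from a repeated module, and most sit in the inner mitochondrial membrane. Each moves a small set of solutes, usually by exchange: ADP for ATP, citrate for malate, aspartate for glutamate, ornithine for citrulline, acylcarnitine for carnitine. Phosphate is instead carried together with protons. In hepatocytes these transport steps connect respiration in the matrix with the urea cycle, gluconeogenesis, lipid synthesis and fatty acid oxidation. Nuclear genes encode all members, and the proteins are imported through the TOM complex, small TIM chaperones and the TIM22 complex.

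Topors itself stood at 4.31 and 4.65 TPM in shTopors libraries, against 21.9 and 29.2 TPM in shCtrl libraries (log2 difference -2.27, SE 0.288, adjusted p = 0.0823, limma), so both knockdown libraries went with their labels. Of 8 hepatocyte markers 7 averaged at least 1 TPM, and Apoa2 was listed at 0 in all but shCtrl 1 (0.214 TPM). Summed, the 8 reached 6989 and 5241 TPM in shTopors and 5707 and 6472 TPM in shCtrl, mostly Krt8 and Krt18. Ttr lay below both controls, at 195 and 410.3 TPM in shTopors and 1119 and 2168 TPM in shCtrl (log2 difference -2.46, SE 0.425, adjusted p = 0.129, limma). Alb was uneven, at 4.15 TPM in shTopors 1 and 402 TPM in shTopors 2, against 118 and 271 TPM in shCtrl. Summed over their lists, the 4 stellate, 3 endothelial and 3 leukocyte markers reached at most 1.38 TPM in shTopors and 1.12 TPM in shCtrl, with Lrat, Cdh5 and Adgre1 listed at 0 in every library. The 4 bile duct markers summed to 1549.9 and 452 TPM in shTopors and to 510.1 and 493 TPM in shCtrl, and they differed among themselves. Krt19 lay above both controls, at 1396 and 345 TPM in shTopors and 341 and 296 TPM in shCtrl, Sox9 lay below, at 26.9 and 42.1 TPM in shTopors and 76.8 and 91.2 TPM in shCtrl, Krt7 overlapped, and Epcam was under 0.1 TPM throughout. Genes of the mitochondrial genome took 0.721% and 0.815% of TPM in shTopors and 1.56% and 1.25% in shCtrl. The 2 shTopors libraries stood apart from each other: 16.6% of all tested genes differed at least 2-fold within the shTopors pair, against 4.94% within the shCtrl pair. In bulk RNA, fewer cells of a type and less RNA per cell cannot be told apart.

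Of the 39 expressed carriers, 0 were called at an adjusted p under 0.05 by limma on log2(TPM + 1), and the smallest adjusted p was 0.208. The same rule called 0.037% of all genes tested. In simulated data it called 3.6% of changes of 1 log2 unit, so 0 calls does not show that carrier levels were unchanged. At an unadjusted p under 0.05 there were 3 members, Slc25a45, Slc25a22 and Slc25a30, all lower in shTopors, beside 14.7% of all genes tested (10.7% lower and 3.98% higher). The groups did not overlap for 12 members, beside 49.8% of all genes tested. Both shTopors libraries lay below both shCtrl libraries for 10 members (25.6%), against 35.2% of all genes tested, and above both for 2 members (5.13%), against 14.6%. This split depended on scaling, for carriers and for all genes tested. After median-of-ratios scaling, 6 members lay below and 5 above, beside 24.0% and 24.5% of all genes tested, and after quantile normalization 6 and 6 did, beside 22.7% and 24.6%. As deposited and under all 3 other scalings, 5 members lay below (12.8%: Slc25a22, Slc25a30, Slc25a36, Slc25a42 and Slc25a45), beside 20.6% of genes. In the same way 2 lay above (5.13%: Slc25a5 and Slc25a26), beside 13.8% of genes. The median log2 difference, shTopors minus shCtrl, was -0.205 over members and -0.183 over all genes tested, and 33 members lay within 0.5 of that all-gene median. The lowest differences were those of Slc25a45 and Slc25a22, and the highest those of Slc25a1 and Slc25a5. Scaling the libraries by median of ratios brought the member median to -0.0191 and the all-gene median to -0.0162, so each difference is relative to that shift. Rescaling without mitochondrial genes and the most abundant genes gave a member median of -0.18.

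Summed over the 39 carriers, transcript levels came to 2942 and 2493 TPM in shTopors and to 2571 and 2929 TPM in shCtrl, with overlapping groups. By level, 7 members averaged at least 100 TPM, 22 lay between 10 and 100 TPM and 10 between 1 and 10 TPM. Slc25a5, Slc25a4 and Slc25a3, which supply ADP and phosphate for ATP synthesis, made up 60.8% and 58.3% of the summed level in shTopors and 54.5% and 51.5% in shCtrl. These shares do not depend on how libraries are scaled to each other, and both shTopors shares were above both shCtrl shares. Of the 3 genes, only Slc25a5 had separate shares by itself. Those of Slc25a4 overlapped (13.8% and 9.14% in shTopors, 12.6% and 12.8% in shCtrl), as did those of Slc25a3 (10.9% and 13.1% in shTopors, 13.4% and 10.5% in shCtrl). With 2 libraries a group, an exact two-sided permutation test cannot give a p below 0.333, so no test was run on shares or ratios.

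**Figure D1:**
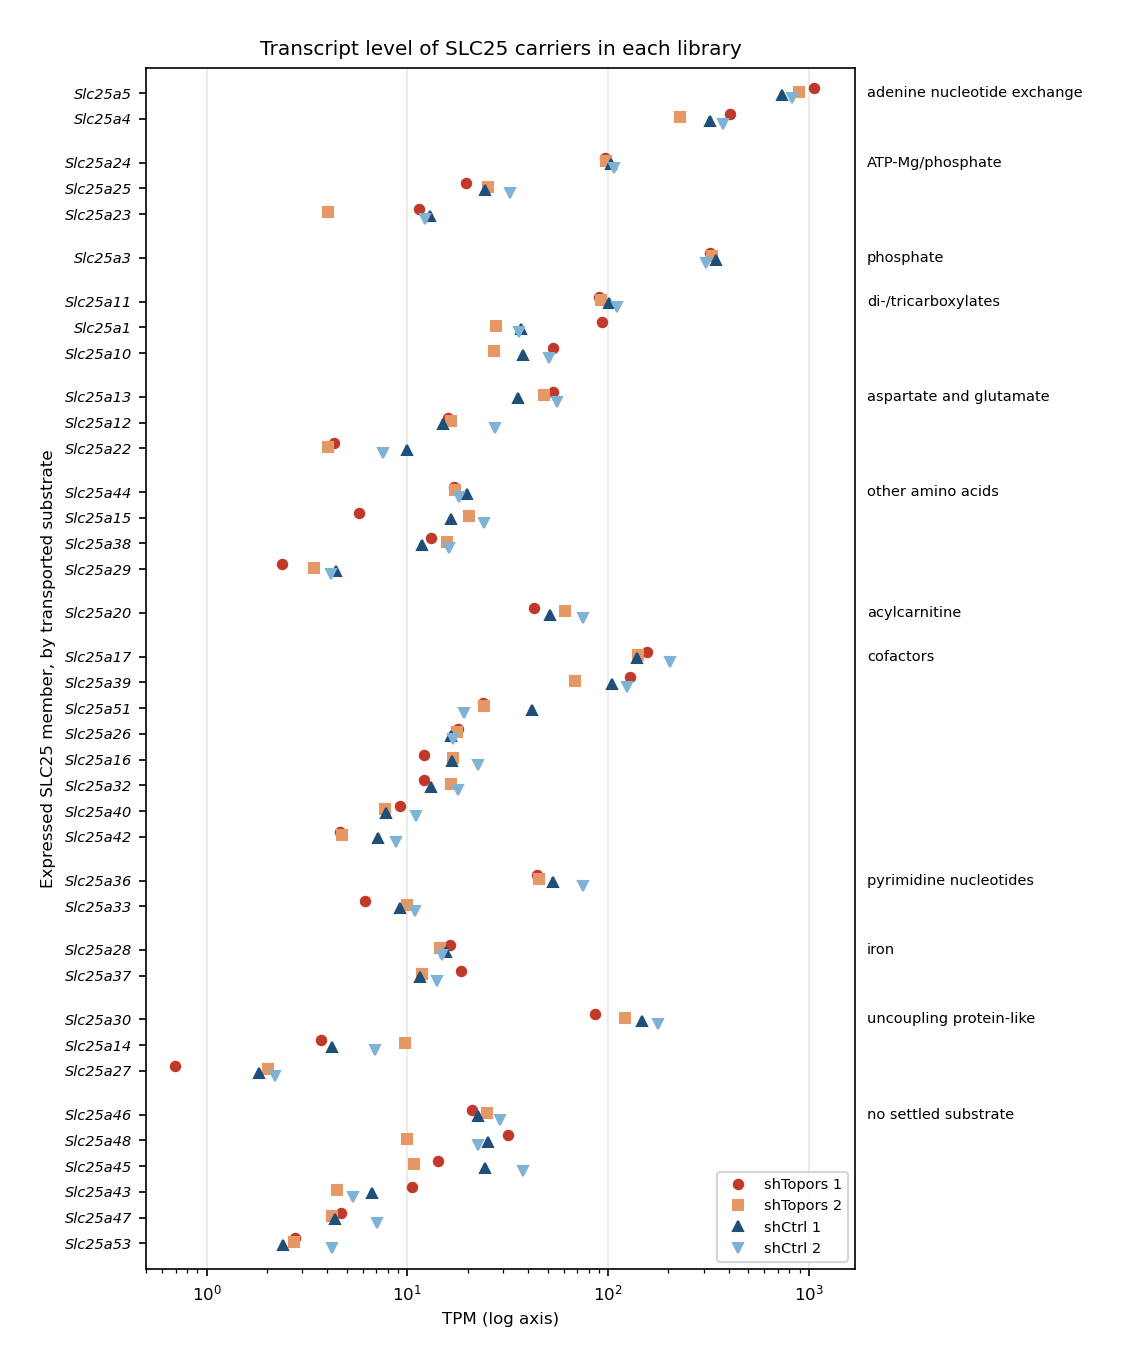
Transcript level in TPM (log axis) of 38 of the 39 expressed SLC25 members, grouped by transported substrate, with 1 symbol per library. Slc25a5 sits at the top of the range in all 4 libraries, both Slc25a45 symbols of shTopors lie left of both shCtrl symbols, and Slc25a1 is high in shTopors 1 alone.

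Among the ADP/ATP exchangers, Slc25a5, the isoform known from proliferating tissues, was the most abundant member of the family and was higher in both shTopors libraries. It stood at 1061 and 898 TPM in shTopors and at 734 and 827 TPM in shCtrl, means of 979.9 ± 115 and 780.3 ± 65.9 TPM (SD, n = 2 each). Its log2 difference was 0.33 (SE 0.202, adjusted p = 0.475, limma), which did not pass. Slc25a4, the isoform of heart and muscle, stood at 406 and 228 TPM in shTopors and at 323 and 375 TPM in shCtrl, so its groups overlapped. The ratio of Slc25a5 to Slc25a4 was 2.61 and 3.94 in shTopors and 2.27 and 2.21 in shCtrl, higher in both knockdown libraries. Slc25a5 alone took 36.1% and 36.0% of the family's summed level in shTopors, against 28.5% and 28.2% in shCtrl. Slc25a31, the testis isoform, was listed at 0.0248 TPM in shTopors 1 and at 0 in the other libraries. Slc25a5 has many near-identical processed copies in the genome, so its value is uncertain to the extent that reads were split. The one copy named for it in the table, Slc25a5-ps, was at 0.0287 TPM in shTopors 1 and at 0 elsewhere.

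Slc25a5 lies at chrX:36795651-36798807 on the plus strand (GENCODE M21, mm10). Its RefSeq promoter window, chrX:36795347-36795646 on the plus strand of GRCm38.p6, is shown because this gene dominates the family's level. Capitals mark a TATAA run that starts 26 bases after the RefSeq start and 28 bases before the GENCODE gene start.
Slc25a5 promoter: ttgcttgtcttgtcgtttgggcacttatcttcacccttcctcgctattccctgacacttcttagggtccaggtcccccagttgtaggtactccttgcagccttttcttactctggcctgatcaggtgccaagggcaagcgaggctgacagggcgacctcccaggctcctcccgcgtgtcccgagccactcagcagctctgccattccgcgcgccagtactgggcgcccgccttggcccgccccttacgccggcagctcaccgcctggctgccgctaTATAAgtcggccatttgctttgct
Promoter windows of 250 bases before to 50 bases after the start were found for 31 of the 39 expressed members, 40 windows in all. TATAA, searched on both strands, occurred in 3 of these windows (7.5%), those of Slc25a4, Slc25a5 and Slc25a15, against 24.9% of all 32851 windows. CCAAT, the letters bound by NF-Y, occurred in 20 of the 40 against 37.4% of all windows, and the E-box CACGTG in 7 (17.5%) against 7.15%. The NRF1 motif occurred in 1 window (2.5%), that of Slc25a3, against 4.6% of all windows. These are counts of windows, and a member can have several: CCAAT occurred in 17 members and the E-box in 6. All windows were not limited to expressed genes, and no difference in motif share was tested.

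Slc25a3, the phosphate carrier, was level across the libraries, at 322 and 328 TPM in shTopors and at 345 and 307 TPM in shCtrl. The ATP-Mg/phosphate carriers, which adjust the adenine nucleotide content of the matrix in response to calcium, were led by Slc25a24 at 97.0 and 97.2 TPM in shTopors and 104 and 107 TPM in shCtrl. Its groups did not overlap, but the gap was small, with a log2 difference of -0.12 (SE 0.224) that became 0.07 after median-of-ratios scaling. Slc25a23 stood at 11.4 and 4.02 TPM in shTopors and at 12.9 and 12.2 TPM in shCtrl. Only the second knockdown library lay far below the controls, and the log2 difference of -0.78 (SE 0.438) had an adjusted p = 0.442. Without shTopors 1 it was -1.43, and without shTopors 2 it was -0.13. Such a fit keeps 1 knockdown library, takes its spread from the controls alone and compares that library with them. Slc25a25 averaged 22.4 ± 3.91 TPM in shTopors and 28.5 ± 5.77 TPM in shCtrl (SD, n = 2 each), with overlapping groups. Naif1, which overlaps its exons on the other strand, was at 3.59 and 3.32 TPM in shTopors and 4.54 and 5.51 TPM in shCtrl. Slc25a54 and Slc25a41 were near silent: Slc25a41 was listed at 0 throughout and Slc25a54 at 0.0158 TPM in shTopors 2 only.

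**Figure D2:**
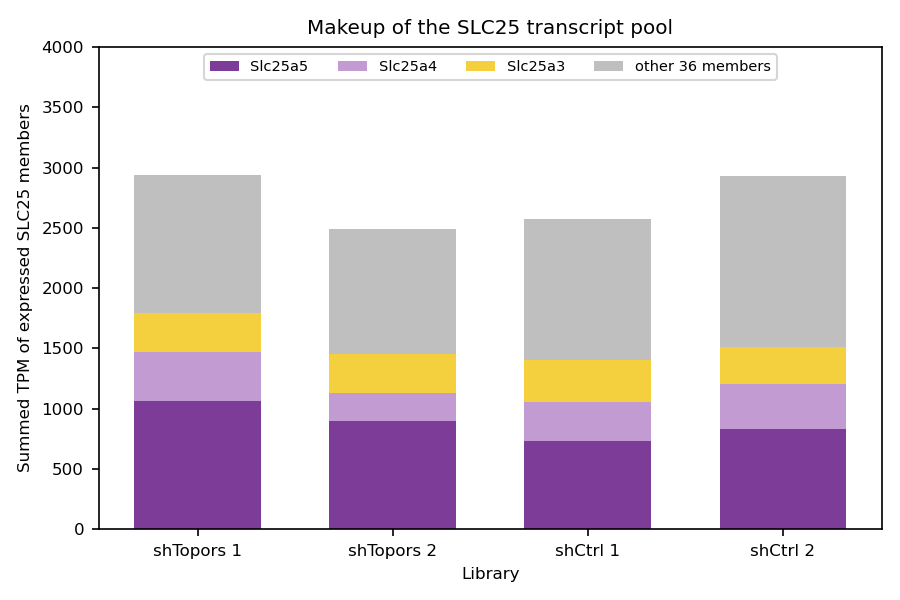
Summed TPM of the 39 expressed SLC25 members in each library, with Slc25a5, Slc25a4, Slc25a3 and the other 36 members as stacked segments. The totals overlap between groups at 2942 and 2493 TPM in shTopors and 2571 and 2929 TPM in shCtrl, while the Slc25a5 segment is taller in both shTopors libraries.

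Carriers of carboxylates link the citric acid cycle with the cytosol. Slc25a1, which exports citrate for lipid synthesis, gave the family's highest log2 difference and one of its widest gaps between knockdown libraries. It stood at 92.8 TPM in shTopors 1 and 27.8 TPM in shTopors 2, against 36.8 and 36.2 TPM in shCtrl, so the first library lay above both controls and the second below both. The log2 difference was 0.47 (SE 0.511, adjusted p = 0.676 in limma's test). Against the controls, shTopors 1 alone gave 1.32. Acly, the cytosolic lyase that splits exported citrate, was at 245 and 147 TPM in shTopors and at 81.3 and 112 TPM in shCtrl, also highest in shTopors 1. Slc25a11, the oxoglutarate/malate exchanger, stood at 90.5 and 92.5 TPM in shTopors and at 101 and 111 TPM in shCtrl, a log2 difference of -0.21 (SE 0.227, adjusted p = 0.680), close to the all-gene median. Its exons overlap Rnf167 on the other strand, which was at 14.5 and 9.14 TPM in shTopors and at 17.1 and 17.5 TPM in shCtrl. Slc25a10, the dicarboxylate carrier, was at 52.9 and 27.1 TPM in shTopors and at 37.9 and 50.7 TPM in shCtrl. Slc25a21, the oxodicarboxylate carrier, averaged 0.603 TPM over all libraries and was not tested.

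Slc25a1 lies at chr16:17925223-17928219 on the minus strand (mm10). Its promoter window, chr16:17928170-17928469 on the minus strand of GRCm38.p6, is printed because the citrate carrier was 3.34-fold apart between the knockdown libraries. Capitals mark an E-box, CACGTG, 239 bases before the RefSeq start, and 2 copies of ATTGG, the other strand of CCAAT, which begin 125 bases before and 36 bases after it.
Slc25a1 promoter: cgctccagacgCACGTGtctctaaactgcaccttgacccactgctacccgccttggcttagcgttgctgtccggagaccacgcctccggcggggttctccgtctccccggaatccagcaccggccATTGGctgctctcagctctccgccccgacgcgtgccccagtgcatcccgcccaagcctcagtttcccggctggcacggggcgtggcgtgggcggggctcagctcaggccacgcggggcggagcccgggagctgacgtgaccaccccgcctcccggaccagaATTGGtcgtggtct
The sterol response letters TCACNCCAC, searched on both strands, were found in 0 of the 40 member windows and in 1.24% of all windows.

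Carriers of aspartate and glutamate serve the malate-aspartate shuttle and the urea cycle. Slc25a13 (citrin), the main aspartate/glutamate exchanger of liver, stood at 53.0 and 48.2 TPM in shTopors and at 35.5 and 55.4 TPM in shCtrl, and Slc25a12 (aralar), the isoform of brain and muscle, at 15.9 and 16.5 TPM against 15.1 and 27.4 TPM. Both overlapped between groups. Their ratio, Slc25a13 to Slc25a12, was 3.32 and 2.92 in shTopors and 2.35 and 2.03 in shCtrl, with no overlap. Of 7 ratios between paralogs, this one and that of Slc25a5 to Slc25a4 were apart, and the other 5 overlapped. Separation is common with 2 libraries a group: in level, 49.8% of all genes tested were apart. The share over ratios of other gene pairs was not computed, and these ratios were not tested. Slc25a22, a glutamate/proton symporter, had the second lowest difference of the family. It stood at 4.31 and 4.01 TPM in shTopors and at 9.95 and 7.59 TPM in shCtrl, 2.11-fold lower by the ratio of means. Its log2 difference was -0.91 (SE 0.291, adjusted p = 0.246, limma), and it ranged from -1.09 to -0.736 with one library left out. Slc25a22 is at chr7:141429744-141437892 on the minus strand. Slc25a18, the other glutamate carrier, was listed at 0 in every library.

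Of the carriers of other amino acids, Slc25a15, the ornithine/citrulline exchanger of the urea cycle, was low in one knockdown library alone. It stood at 5.77 TPM in shTopors 1 and 20.2 TPM in shTopors 2, against 16.5 and 24.2 TPM in shCtrl. The log2 difference was -0.81 (SE 0.527, adjusted p = 0.492). For shTopors 1 alone against the controls it was -1.63. Slc25a29, a carrier of basic amino acids, was at 2.37 and 3.43 TPM in shTopors and at 4.39 and 4.16 TPM in shCtrl, a log2 difference of -0.45 (SE 0.298, adjusted p = 0.499). Slc25a44, which imports branched-chain amino acids in brown fat, was at 17.0 and 17.3 TPM in shTopors and 19.8 and 18.0 TPM in shCtrl, a narrow gap whose log2 difference of -0.13 became 0.05 after median-of-ratios scaling. Slc25a38, the glycine carrier needed for heme synthesis, averaged 14.5 ± 1.89 TPM in shTopors and 14.0 ± 3.1 TPM in shCtrl (SD, n = 2 each). Slc25a2, a second ornithine carrier, averaged 0.755 TPM and was not tested. The only acylcarnitine carrier, Slc25a20, brings fatty acids in for oxidation and stood at 43.0 and 60.9 TPM in shTopors and at 51.6 and 75.3 TPM in shCtrl, with overlapping groups.

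All 9 carriers of cofactors were expressed, and 7 of them overlapped between groups. The most abundant was Slc25a17, a peroxisomal carrier of CoA, FAD and NAD, at 156 and 140.3 TPM in shTopors and at 139.6 and 204 TPM in shCtrl. Slc25a39, which imports glutathione, was at 129 and 68.2 TPM in shTopors and at 105 and 124 TPM in shCtrl, and its paralog Slc25a40 averaged 8.45 ± 1.01 TPM in shTopors and 9.4 ± 2.2 TPM in shCtrl (SD, n = 2 each). Slc25a42, which exchanges CoA for adenine nucleotides, was lower in both shTopors libraries, at 4.63 and 4.74 TPM, against 7.13 and 8.74 TPM in shCtrl. Its log2 difference was -0.65 (SE 0.284, adjusted p = 0.354 in limma's test). Slc25a26, the carrier of S-adenosylmethionine, lay above both controls by a small amount, at 17.9 and 17.7 TPM in shTopors and 16.5 and 16.8 TPM in shCtrl, with a log2 difference of 0.09 (SE 0.259, adjusted p = 0.881). Its exons overlap Lrig1 on the other strand, at 27.1 and 44.7 TPM in shTopors and 29.2 and 44.4 TPM in shCtrl. Slc25a51, which imports NAD, was even in the knockdown at 23.9 and 24.1 TPM, while the controls were at 41.8 and 19.1 TPM, the only member at least 2-fold apart in that pair. Slc25a16, linked to CoA, averaged 14.5 TPM in shTopors and 19.5 TPM in shCtrl, and Slc25a32, a carrier of folate or FAD, 14.3 TPM in shTopors and 15.5 TPM in shCtrl, both overlapping.

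The pyrimidine nucleotide carrier Slc25a36 stood at 44.1 and 45.3 TPM in shTopors and at 52.9 and 75.1 TPM in shCtrl, a log2 difference of -0.49 (SE 0.271, adjusted p = 0.438). Its paralog Slc25a33 was at 6.12 and 9.91 TPM in shTopors and at 9.16 and 10.9 TPM in shCtrl, with overlap. The iron importers (mitoferrins) were nearly equal in level. Slc25a28 was at 16.4 and 14.5 TPM in shTopors and 15.5 and 14.9 TPM in shCtrl, and Slc25a37 at 18.6 and 11.8 TPM against 11.5 and 14.1 TPM, with overlapping groups for both.

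**Figure D3:**
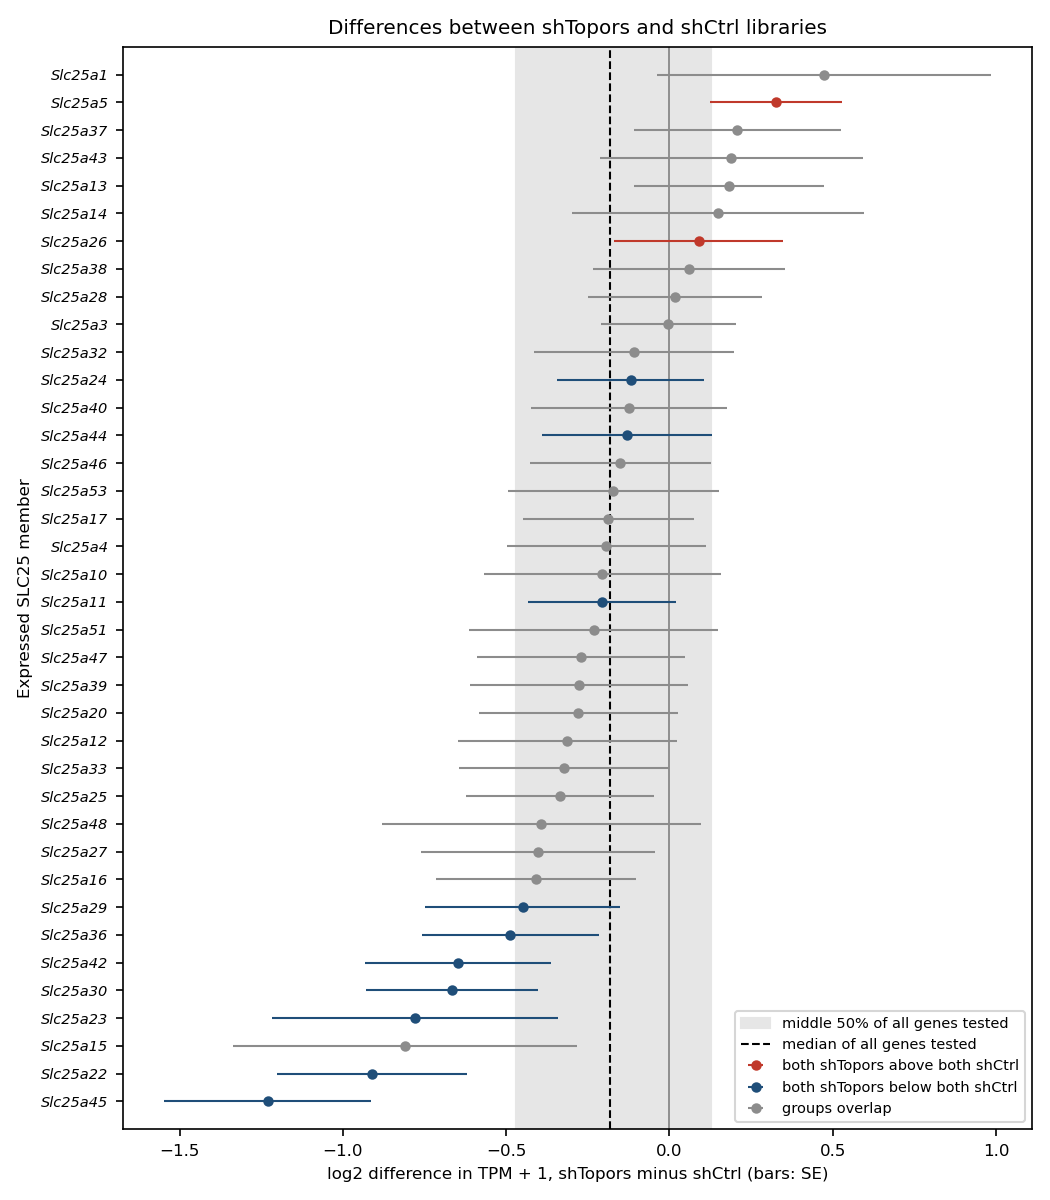
Log2 difference in TPM + 1, shTopors minus shCtrl, with its SE for 38 of the 39 expressed members, beside the median (dashed, -0.183) and the interquartile range of all genes tested (grey, -0.471 to 0.127). Slc25a45 and Slc25a22 lie lowest at -1.23 and -0.91, and Slc25a1 and Slc25a5 highest at 0.47 and 0.33.

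Uncoupling protein-like members were led by Slc25a30, first described as a mitochondrial carrier of kidney. It stood at 85.9 and 121 TPM in shTopors and at 148 and 178 TPM in shCtrl, 1.58-fold lower by the ratio of means, the lowest difference among the 7 members that averaged at least 100 TPM. Its log2 difference was -0.67 (SE 0.263, adjusted p = 0.317, limma), and with one library left out it ranged from -0.908 to -0.424. The lowest was without shTopors 2 and the highest without shTopors 1, fits that keep 1 knockdown library each. Slc25a30 lies at chr14:75760117-75787037 on the minus strand. Slc25a14 was at 3.71 and 9.72 TPM in shTopors and at 4.21 and 6.88 TPM in shCtrl, so one knockdown library was below and the other above both controls. Slc25a27 was at 0.697 and 2.03 TPM in shTopors and at 1.83 and 2.18 TPM in shCtrl.

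Slc25a45, placed here among members with no settled substrate and more recently linked to methylated amino acids, had the lowest difference of the family. It stood at 14.2 and 10.8 TPM in shTopors and at 24.5 and 37.7 TPM in shCtrl, means of 12.5 ± 2.4 and 31.1 ± 9.3 TPM (SD, n = 2 each), which is 2.49-fold lower. The log2 difference was -1.23 (SE 0.317, adjusted p = 0.208, limma). It was -1.41 without shTopors 1, -1.05 without shTopors 2, -1.53 without shCtrl 1 and -0.931 without shCtrl 2. Slc25a45 lies at chr19:5877808-5885878 on the plus strand. Slc25a48, recently linked to choline, was at 31.6 and 10.0 TPM in shTopors and at 25.2 and 22.6 TPM in shCtrl, above both controls in one knockdown library and below both in the other. Slc25a46, an outer membrane protein of mitochondrial dynamics, averaged 22.9 ± 2.69 TPM in shTopors and 25.7 ± 4.59 TPM in shCtrl (SD, n = 2 each). Slc25a43, the liver gene Slc25a47 and Slc25a53 averaged 7.5, 4.46 and 2.75 TPM in shTopors and 5.98, 5.72 and 3.32 TPM in shCtrl, with overlapping groups. Slc25a34 and Slc25a35 averaged 0.705 and 0.512 TPM and were not tested.

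The 8 members under the limit held both silent genes and traces. Slc25a18 and Slc25a41 were listed at 0 in every library, and Slc25a31 and Slc25a54 in all but 1. Slc25a2 was at 0.311 and 0.378 TPM in shTopors and at 0.813 and 1.52 TPM in shCtrl, Slc25a21 at 0.0406 and 0.272 TPM against 0.593 and 1.51 TPM, and Slc25a34 at 0.223 and 0.319 TPM against 0.827 and 1.45 TPM. These 3 of the 8 lay below both controls in both knockdown libraries, at levels whose read support is unknown. Of all genes tested, which exclude these, 35.2% did so. No share over genes under the limit is given. Just above the limit stood Slc25a27, with a mean of 1.68 TPM, and just below it Slc25a2, with 0.755 TPM.

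Knockdown libraries disagreed for a subset of carriers. Between shTopors 1 and shTopors 2, 7 of the 39 members differed at least 2-fold (17.9%, against 16.6% of all genes tested), and between the controls 1 did. Slc25a1, Slc25a48, Slc25a23 and Slc25a43 were higher in shTopors 1, by 3.34, 3.15, 2.83 and 2.37-fold. Slc25a15, Slc25a27 and Slc25a14 were higher in shTopors 2, by 3.5, 2.91 and 2.62-fold. The SD of the log2 gap over members was 0.684 in the shTopors pair and 0.358 in the shCtrl pair, beside 0.688 and 0.429 over all genes tested. Cell type markers differed within the same pair in both directions: in shTopors 1 and shTopors 2, Alb was at 4.15 and 402 TPM, Apoa1 at 113 and 11.5 TPM, Hnf4a at 179 and 95.3 TPM, Krt19 at 1396 and 345 TPM and Sox9 at 26.9 and 42.1 TPM. Their part in the carrier values was not tested.

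**Figure D4:**
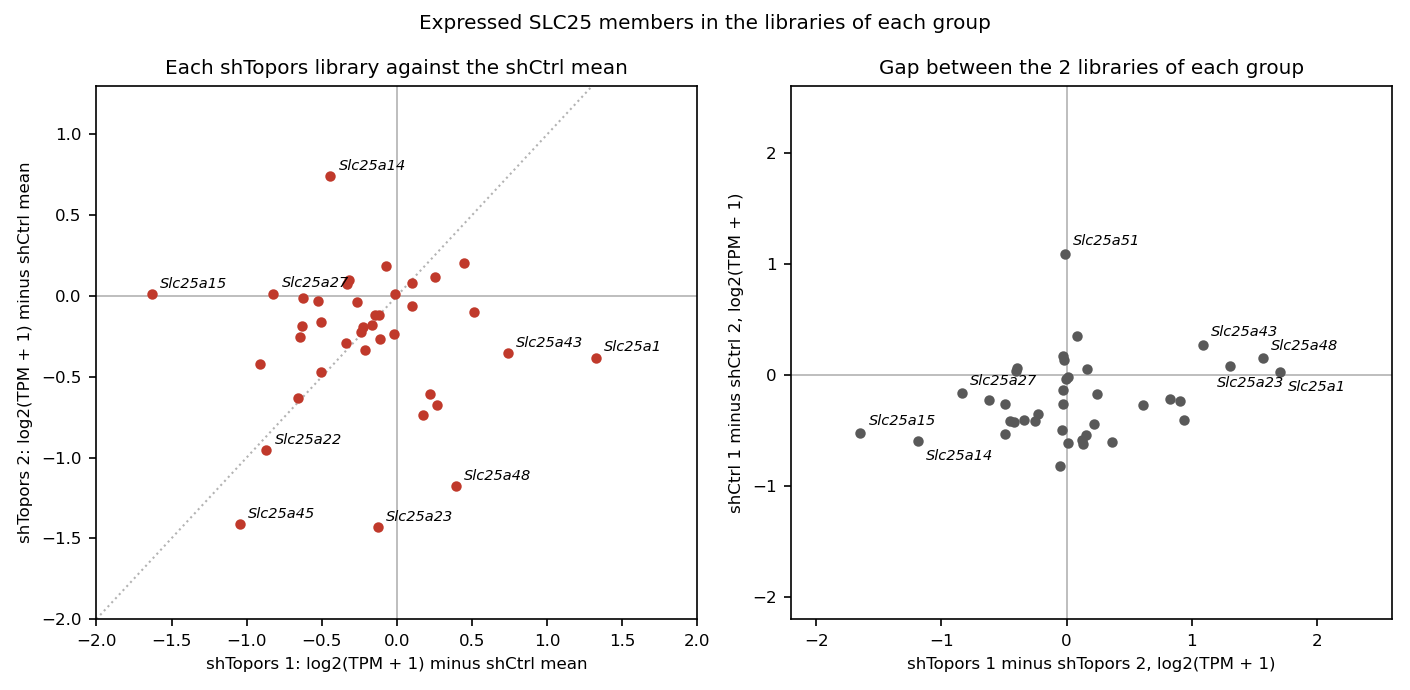
Left, each expressed member's log2(TPM + 1) minus the shCtrl mean in shTopors 1 (x) and shTopors 2 (y), with the dotted line marking equality. Right, the gap between libraries 1 and 2 of shTopors (x) and of shCtrl (y). Slc25a45 and Slc25a22 are low in both knockdown libraries, whereas the 7 members at least 2-fold apart lie off the line, and the gaps spread wider along x (SD 0.684) than along y (SD 0.358).

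Genes that work with the carriers were read from related lists, and limma called 0 of their tested members at an adjusted p under 0.05. For the proteins that import carriers, 4 of 10 lay above both controls in both shTopors libraries and 0 below, beside 14.6% and 35.2% of all genes tested. Tomm40, the pore of the outer membrane, was at 100.2 and 76.9 TPM in shTopors and at 68.3 and 60.9 TPM in shCtrl. Its log2 difference was 0.44 (SE 0.254, adjusted p = 0.451, limma). Tomm22, its receptor, was at 207 and 176 TPM against 149 and 173 TPM. The chaperone Timm9 was at 11.9 and 12.9 TPM against 8.36 and 11.8 TPM, and Timm22 at 22.1 and 19.7 TPM against 16.0 and 19.6 TPM. For Tomm22, Timm9 and Timm22 the nearest libraries of the groups were almost equal. Their log2 differences were 0.25, 0.29 and 0.22 (adjusted p = 0.63, 0.656 and 0.71, limma). Of 8 shuttle enzymes, 2 lay above and 1 below. Got1, the cytosolic aspartate aminotransferase, was at 109.7 and 106 TPM in shTopors and at 75.1 and 80.0 TPM in shCtrl (log2 difference 0.47, SE 0.227, adjusted p = 0.387), and Acly is given above (log2 difference 0.98, adjusted p = 0.248).

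Other transporters of the inner membrane were mixed: of 16 tested, 2 lay above and 6 below both controls. Sfxn5, a sideroflexin, was at 14.4 and 12.0 TPM in shTopors and at 4.89 and 5.38 TPM in shCtrl, a log2 difference of 1.21 (SE 0.281, adjusted p = 0.177). Its relatives Sfxn2 and Sfxn4 lay below the controls, with Sfxn2 at 6.98 and 14.0 TPM in shTopors and 18.1 and 24.6 TPM in shCtrl and Sfxn4 at 2.12 and 6.45 TPM against 7.14 and 9.5 TPM. Their log2 differences were -1.01 (SE 0.374, adjusted p = 0.295) and -0.94 (SE 0.442, adjusted p = 0.380). Of the outer membrane channels, Vdac2 lay above both controls at 247 and 231 TPM in shTopors, against 202 and 228 TPM in shCtrl, and Vdac1 and Vdac3 overlapped. SLC25 relatives with other symbols held 3 tested genes, of which Mtch1 lay below both controls at 70.5 and 87.3 TPM in shTopors, against 109.9 and 94.9 TPM in shCtrl (overlapping after median-of-ratios scaling), and Ucp2 and Mtch2 overlapped. Ucp1 was listed at 0 in every library.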

How the data were processed

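The authors deposited one table of TPM per gene and library, whose columns summed to 999943 and 999925 in shTopors and to 999933 and 999914 in shCtrl. Per the submitters' processing notes, HISAT2, HTSeq, DESeq2, StringTie and the mm10 build were used, and the sources used here give no role, version or strand setting for them. Read depth is unknown from TPM, so no interval for counting error is given. The table had 52633 rows, and 3 repeated identifiers, none of them a carrier, were summed. All 47 carriers were protein-coding in GENCODE M21, and exons of 9 expressed carriers overlapped a gene on the other strand, which cannot be told apart unless counting used strand.

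Log2(TPM + 1) was fitted for shTopors minus shCtrl with limma 3.58.1 (R 4.3.3, trended variance) on the 13509 genes averaging 1 TPM or more, with Benjamini-Hochberg adjustment over all of these genes and calls at an adjusted p under 0.05. Differences on this scale understate changes of low genes. The steps were tested on simulated data in which some of the more abundant genes were changed. Of changes of 1 log2 unit, 3.6% were called, against 76.8% of changes of 2 units and 97.6% of 3. Alternatives were pseudocounts of 0.1 and 5, no filter, a filter at 5 TPM, 3 other scalings, untrended variance, the replicate number as a block, and the omission of single libraries. Promoter windows are RefSeq's (GRCm38.p6). Members and lists were chosen with earlier results of these data known. By rule, values in every library were given for the top member of each substrate class and for up to 8 members per direction with separate groups and the largest differences. Those of other members were added after their values were seen. Values of 1 expressed carrier and 1 enzyme are not reported here by name, and both stay in the counts. Figures used Python 3.11.15 with matplotlib 3.10.9.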

Additional observations from a re-analysis of the deposited data

How the results depend on the processing

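No carrier passed the adjusted threshold under any alternative that kept all 4 libraries. With 1 library left out, 0 to 4 did. Without shTopors 1, 3 passed (Slc25a23, Slc25a45 and Slc25a48) and without shTopors 2, 4 passed (Slc25a1, Slc25a15, Slc25a30 and Slc25a45). Over all genes, 5 passed, against 0 with no filter, 1 each with a filter at 5 TPM, median-of-ratios scaling, quantile normalization or rescaling without mitochondrial and top genes, and from 0 (without shCtrl 2) to 2166 (without shTopors 2) with 1 library left out, with 1147 without shTopors 1. The cause was not tested. Fits without a shTopors library keep 1 knockdown library each, and in both the share of carriers that passed was no higher than that of all genes tested. Passing there therefore does not set the named carriers apart from other genes. The member median of -0.205 was -0.0191 after median-of-ratios scaling and -0.342 (without shCtrl 1) to -0.0889 (without shCtrl 2) with 1 library left out. Members whose groups do not overlap numbered 12, and 20 to 30 with 1 library left out, where fewer values must be separated. Libraries of a group share only a number across groups: the correlation of same-numbered deviations was 0.199 over all genes, and the replicate block gave 33 calls over all genes and 0 among carriers. After median-of-ratios scaling, 8 of 39 members changed sign, while the all-gene median moved to -0.0162 against -0.183 as deposited. Of the 12 members with separate groups, Slc25a24 and Slc25a44 were among these 8, at 0.0688 and 0.0489 after that scaling. Unknown depth limits what can be said of members near 1 TPM.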
